A study of Rattus norvegicus with 8 samples.

Results

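The enzymes and transporters that carry glucose to pyruvate and lactate, with those of the pentose phosphate branch, were followed as 33 genes on ovary arrays of immature rats. A probe belonged to the set when the gene name in the scanner files was that of a listed gene, whatever the probe's values. The gene list itself was drawn up with earlier results of these data known. This gave 45 probes for 32 of the 33 genes, among 30350 non-control probes of 26204 gene names. Pgd, of the oxidative pentose phosphate branch, is not analysed here. A set of 82 probes described as glyceraldehyde-3-phosphate dehydrogenase under other gene names was left out.

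Glycolysis splits glucose into a pair of pyruvate molecules and yields ATP without oxygen, lactate dehydrogenase turns pyruvate into lactate, and monocarboxylate transporters export it. The pentose phosphate branch makes NADPH, which steroid and cholesterol synthesis consume, and ribose. In ovarian follicles the oocyte uses glucose poorly and takes up pyruvate supplied by the surrounding granulosa cells.

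The control group received albumin phosphate buffer under the skin and the other group received PMSG (pregnant mare serum gonadotropin), which acts on follicles mainly as follicle-stimulating hormone does. Both groups were female rats injected at 26 days of age, PMSG at a dose of 50 IU in 0.2 ml, and their ovaries were removed 48 h later, at 28 days. There were 4 arrays per group, and the labels name neither a strain nor whether each array was 1 animal, so p-values measure only the spread between these samples. The RNA came from whole ovary, where fewer cells of a type and less RNA per cell cannot be told apart.

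Known targets of gonadotropins moved opposite to what PMSG is generally known to do, so the groups are named here by their labels. Log2 differences (arrays labelled PMSG minus arrays labelled control) were -3.36 for Cyp11a1, the first enzyme of steroid synthesis, -2.75 for Star, which brings cholesterol into mitochondria, -1.93 for the luteinising hormone receptor gene Lhcgr and -4.08 for the EGF-like ligand Areg. Amh, a product of small growing follicles, was higher by 3.03 (limma adjusted p from 2.32e-04 to 0.00541 over the 5). Every direction below follows the labels and would be reversed if they were exchanged, which was not tested. No spot was saturated, and the share of probes well above background ran from 80.8% to 84.6% over the 8 arrays. Levels are log2 processed signal minus the array's 75th percentile, which compares arrays for 1 probe but not 1 probe with another.

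Oligonucleotides of the aldolase isozyme genes Aldoa and Aldoc, of Ldhb, and of Pkm, the largest decrease, are shown as the array files give them, 5′ to 3′. That of Ldha, which moved opposite to Ldhb, is not shown. Each holds an open forward reading frame, and exon annotation of build rn4 was not used here. The Aldoc oligonucleotide is the dimmer of that gene's probes, while the call and the isozyme ratio below use the brighter one.
Aldoa: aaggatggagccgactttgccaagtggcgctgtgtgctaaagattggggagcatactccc
Aldoc: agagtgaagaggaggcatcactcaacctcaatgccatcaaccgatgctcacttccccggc
Ldhb: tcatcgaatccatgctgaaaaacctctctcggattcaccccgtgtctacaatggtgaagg
Pkm: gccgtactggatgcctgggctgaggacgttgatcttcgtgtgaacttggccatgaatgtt

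A probe was tested when it was well above background on at least 4 of the 8 arrays, which 31 of the 32 genes passed, and for a gene with several such probes the brightest was used. The groups were compared with limma over all 25303 tested probes, with Benjamini-Hochberg adjustment and a threshold of 0.05. Of the 31 genes 19 passed (34.2% of all tested probes did), and decreases in arrays labelled PMSG outnumbered increases. In all 14 genes fell (45.2%, where 16.6% of all tested probes did), 5 rose (16.1%, where 17.6% of all probes did) and 12 did not pass. Of the 15 enzymes from hexokinase to pyruvate kinase 10 fell and 1 rose, with a median log2 difference of -0.72. At least 2-fold decreases were found for 3 genes, Gapdh, Pgam1 and Pkm (4.6% of all probes), and a 2-fold increase for Aldoc (7.2% of all probes). The median log2 difference was -0.31 over the 31 genes and 0.11 over all tested probes. Values of the groups did not overlap in 18 of the 31 genes (58.1%), where 36.6% of all probes showed no overlap. Centring arrays on their median brought the median of all probes to -0.05 and that of the 31 genes to -0.48, with 3 genes higher and 16 lower. None of the 19 genes past the threshold changed direction under the 20 alternative settings that keep a gene's brightest probe or average its probes; on dimmer probes Pfkfb2 had the other sign.

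**Figure D1:**
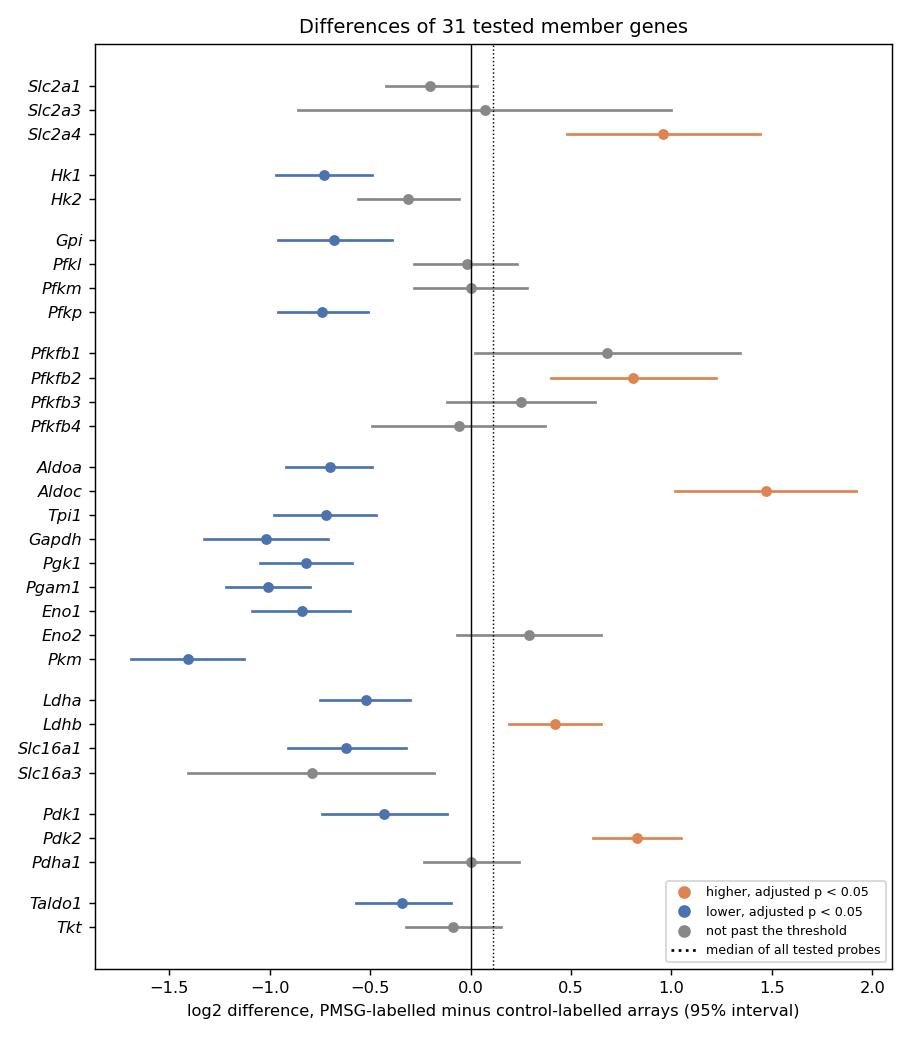
Log2 difference of each of the 31 tested genes, arrays labelled PMSG minus arrays labelled control (x axis), with 95% limma intervals (lines) and colour for the call, n = 4 arrays per group. The genes are grouped by step from glucose uptake to the pentose phosphate branch, and the dotted line is the median of all tested probes, 0.11. Pkm, at -1.41, lies farthest left and Aldoc, at 1.47, farthest right.

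Of the glucose transporters only the insulin-regulated GLUT4 gene Slc2a4 passed the threshold among the 3 tested. Arrays 1 to 4 of the control-labelled group read -1.22, -0.99, -0.35 and -1.12, and arrays 1 to 4 of the PMSG-labelled group -0.07, -0.22, 0.19 and 0.28. All 4 PMSG-labelled arrays were above all control-labelled ones, of which array 3 came closest. The PMSG-labelled mean was higher by 0.96 on the log2 scale (limma SE 0.21, adjusted p = 0.00879; chr10:56786861-56786920, build rn4). Fat cells and striated muscle are the known main sites of GLUT4. The 8 adipocyte markers had 1 gene higher, Cidea (1.85, limma adjusted p = 0.00577), and 0 lower, with summed levels (linear signal relative to the 75th percentile) from 6.5 to 48.7 in control-labelled and from 20.1 to 54.8 in PMSG-labelled arrays. Control-labelled array 3, the highest of its group for Slc2a4, was also the highest of its group for these markers, at 48.7, whereas PMSG-labelled array 4, the highest of its group for Slc2a4, was the lowest for them, at 20.1. Of 9 striated muscle markers tested 3 were higher and 1 lower, with summed levels from 1.69 to 3.08 and from 2 to 4.4. Control-labelled array 3 was the highest of its group for these sums, at 3.08, as for Slc2a4. PMSG-labelled arrays 3 and 4 led their group for both, at 4.4 and 3.7 for these sums, with array 4 ahead for Slc2a4. The part of either cell type in the Slc2a4 difference was not tested.

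The widely expressed GLUT1 gene Slc2a1 lay between 1.34 and 1.46 in control-labelled and between 1.07 and 1.38 in PMSG-labelled arrays, ranges that overlap. Its log2 difference of -0.2 (95% interval -0.42 to 0.03, limma adjusted p = 0.153) did not pass. The high-affinity GLUT3 gene Slc2a3 was dim, at -5.97 ± 0.33 (SD, n = 4) and -5.91 ± 0.87 (SD, n = 4), and was not well above background on 1 PMSG-labelled array. Its interval, -0.86 to 1, is too wide to place it.

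Hexokinases trap glucose in the cell as glucose 6-phosphate. Hk1 read 3.36, 3.15, 3.38 and 3.22 on control-labelled arrays and 2.5, 2.4, 2.56 and 2.72 on PMSG-labelled ones, a log2 difference of -0.73 (limma SE 0.11, adjusted p = 0.0013). Every PMSG-labelled array was thus below every control-labelled one. Hk2, the insulin- and hypoxia-responsive form, had a log2 difference of -0.31 and missed the threshold (limma adjusted p = 0.0581, from 0.0107 to 0.346 over its alternatives). It passed with quantile normalization (0.0107), median centring (0.011), array weights (0.041) or without PMSG array 3 (0.025).

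Gpi converts glucose 6-phosphate to fructose 6-phosphate. Its levels were 3.76, 3.84, 3.83 and 3.61 in control-labelled and 3, 2.87, 3.35 and 3.13 in PMSG-labelled arrays, a log2 difference of -0.68 (limma SE 0.13, adjusted p = 0.00417; chr1:86659123-86659182). Phosphofructokinase, the committed step, has platelet, liver and muscle subunits. The platelet subunit gene Pfkp fell from between 5.52 and 5.79 to between 4.82 and 4.98, by 0.74 on the log2 scale (limma SE 0.1, adjusted p = 9.56e-04; chr17:74822977-74823036). Pfkl and Pfkm did not pass, with differences of -0.02 (95% interval -0.28 to 0.23) and 0 (95% interval -0.28 to 0.28).

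The PFKFB enzymes make and degrade fructose 2,6-bisphosphate, the main activator of phosphofructokinase. None of these 4 genes fell. Pfkfb2 stood at -5.6, -5.77, -5.44 and -5.43 in control-labelled and -5.11, -4.54, -4.95 and -4.4 in PMSG-labelled arrays, low levels without overlap and a log2 difference of 0.81 (limma SE 0.18, adjusted p = 0.00885). The call depended on scaling and probe, with adjusted p = 0.198 after quantile normalization and 0.0648 after median centring (0.00627 to 0.453 over its alternatives), its difference was 0.36 after normexp background correction, and a dimmer Pfkfb2 probe had a difference of -0.4 (limma adjusted p = 0.297). Pfkfb1 (0.68), Pfkfb3 (0.25) and Pfkfb4 (-0.06) did not pass, with limma adjusted p of 0.102, 0.255 and 0.816. Without control array 3 the value for Pfkfb1 was 0.94 (limma adjusted p = 0.0176, up to 0.839 over its alternatives), and without PMSG array 4 that of Pfkfb3 was 0.38 (0.0492, up to 0.858).

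Of the 9 genes from aldolase to pyruvate kinase, 7 fell and 1 rose, Aldoc. Aldolase cleaves fructose 1,6-bisphosphate. Aldoa, the main form in muscle, read 3.22, 3.24, 3.28 and 3.25 in control-labelled and 2.5, 2.39, 2.69 and 2.6 in PMSG-labelled arrays, and so fell by 0.7 on the log2 scale (limma SE 0.09, adjusted p = 9.58e-04; chr1:185972062-185972121). Aldoc, the form best known from brain, moved the other way, from 3.4, 3.29, 3.68 and 2.97 to 4.46, 4.64, 5.06 and 5.04. The groups lay apart, with a log2 difference of 1.47 (limma SE 0.19, adjusted p = 9.1e-04; chr10:64308833-64308892), and the dimmer probe printed above rose by 1.37.

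Triose phosphate isomerase, which interconverts the products of aldolase, is encoded by Tpi1. Its levels went from 5.14, 5.12, 5.06 and 4.92 to 4.41, 4.27, 4.52 and 4.14, a log2 difference of -0.72 (limma SE 0.11, adjusted p = 0.00184), and another probe gave -0.86. Gapdh, which makes NADH and is often taken as a constant reference in expression assays, fell at least 2-fold. It read 5, 4.95, 4.93 and 4.88 in control-labelled and 3.95, 3.74, 4.27 and 3.74 in PMSG-labelled arrays, a log2 difference of -1.02 (limma SE 0.13, adjusted p = 8.85e-04; chr4:161282310-161282369). The other Gapdh probes gave -1.12 and -1.21, and each shares at least 30 bases in a row with 1 probe of another gene name, so signal from near-identical copies cannot be told apart from Gapdh. Pgk1, which makes the first ATP of the pathway, was at 6.03, 5.99, 6 and 5.82 against 5.24, 4.97, 5.21 and 5.13, a log2 difference of -0.82 (limma SE 0.1, adjusted p = 6.7e-04).

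Pgam1 moves the phosphate of phosphoglycerate. Its levels were 6.52, 6.32, 6.27 and 6.35 in control-labelled and 5.31, 5.39, 5.43 and 5.31 in PMSG-labelled arrays, a log2 difference of -1.01 (limma SE 0.09, adjusted p = 2.16e-04). Eno1, the enolase of most tissues, was lower by 0.84, 1.31 and 1.44 (log2) on its 3 probes, each past the threshold. The brightest read 5.89, 5.78, 5.73 and 5.65 against 5.05, 4.84, 5.04 and 4.76 (limma adjusted p = 7.49e-04). The files place this Eno1 probe, another Eno1 probe and the Pgam1 probe on chromosomes other than that of the gene in RefSeq, and what else they read was not tested. The Eno1 probe on the gene's own chromosome (chr5:167405206-167405265) gave the difference of -1.31. Eno2, the neuronal enolase, had values from -0.55 to 0.16 and from -0.02 to 0.24 and did not pass (0.29, limma adjusted p = 0.179).

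Pkm, pyruvate kinase of most tissues other than liver, showed the largest decrease among the 31 genes. Its brighter probe read 2.54, 2.64, 2.46 and 2.48 in control-labelled and 0.94, 0.95, 1.27 and 1.33 in PMSG-labelled arrays, a log2 difference of -1.41 or 2.65-fold (limma SE 0.12, adjusted p = 1.78e-04; chr8:63507002-63507061). A dim second Pkm probe (chr8:63504373-63504432), at -5.25 over all arrays, differed by -0.1 with an interval from -0.69 to 0.49. The probes thus did not give the same size of change, and their mean gave -0.75.

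**Figure D2:**
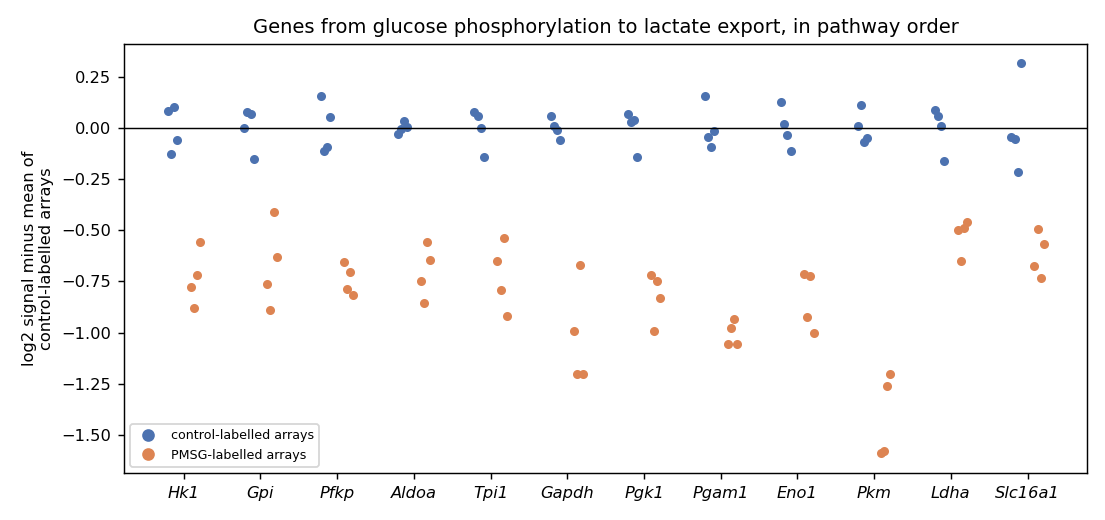
Level of 12 genes on each array, in pathway order from Hk1 to Slc16a1 (x axis), as log2 signal minus the mean of the 4 control-labelled arrays (y axis). Each point is 1 array. Only genes past the threshold as lower are shown, so their direction was fixed by the choice. Hk2, Pfkl, Pfkm, Aldoc, Eno2, Ldhb and Slc16a3, of the same steps, rose or did not pass and are left out. For the 12 genes every PMSG-labelled array lies below every control-labelled array, with Pkm lowest.

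Lactate dehydrogenase is a tetramer of A and B subunits, and the A subunit prevails in tissues that make lactate. Ldha fell from 6.54, 6.51, 6.46 and 6.29 to 5.95, 5.8, 5.96 and 5.99, by 0.52 on the log2 scale (limma SE 0.1, adjusted p = 0.00415; chr1:97412370-97412429). This is the only Ldha probe, and it shares at least 30 bases in a row with 1 probe of another gene name. Ldhb rose from 4.51, 4.47, 4.53 and 4.41 to 4.93, 4.94, 5.03 and 4.7, a log2 difference of 0.42 (limma SE 0.1, adjusted p = 0.0131). Both sets of values were free of overlap, but the Ldhb call was lost under median centring (0.25, limma adjusted p = 0.0818, within 0.00208 to 0.402 over its alternatives).

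Of the lactate transporter genes 1 of 2 passed. Slc16a1, encoding MCT1, read -0.08, -0.09, -0.25 and 0.28 against -0.71, -0.53, -0.77 and -0.6, a log2 difference of -0.62 (limma SE 0.13, adjusted p = 0.00764; chr2:199879777-199879836). For Slc16a3, encoding the export carrier MCT4, values of -0.31, -0.26, -0.13 and -0.99 faced -1.13, -1.57, -0.6 and -1.56 and overlapped. Its difference of -0.79 missed the threshold (limma SE 0.27, adjusted p = 0.0514), and 8 of 20 alternatives brought it past, among them leaving out control array 4 (0.0258) or PMSG array 3 (0.0171), in a range from 0.00905 to 0.467.

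Pyruvate dehydrogenase kinases switch off the entry of pyruvate into the citric acid cycle. Pdk2 rose from -0.17, -0.34, -0.1 and -0.37 to 0.59, 0.56, 0.58 and 0.62, a log2 difference of 0.83 (limma SE 0.1, adjusted p = 4.94e-04; chr10:83710577-83710636). Pdk1, a known hypoxia target, was lower by 0.43 (limma adjusted p = 0.04) with overlapping groups, from -2.31 to -1.84 and from -2.65 to -2.28. That call was lost without any one of control arrays 1, 2 and 3 and PMSG arrays 2, 3 and 4 (limma adjusted p from 0.0628 to 0.0999, within 0.00615 to 0.251 over its alternatives), with array weights (0.0624) and with no filter on dim probes (0.0538). Pdk4, the fasting-induced kinase, was well above background on 0 of 4 control-labelled and 2 of 4 PMSG-labelled arrays and was not tested. Its unscaled signals were 2.9, 2.4, 6.5 and 4.9 against 16.1, 8.5, 12.5 and 7.7. Pdha1, the catalytic subunit these kinases act on, had a difference of 0 (95% interval -0.23 to 0.24).

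In the pentose phosphate branch Taldo1, transaldolase, was lower by 0.34 (limma SE 0.1, adjusted p = 0.034), from 4.12 to 4.21 in control-labelled and from 3.67 to 3.98 in PMSG-labelled arrays. The ranges did not overlap, but the call was lost without any one of control arrays 1 to 4 or PMSG array 3 (limma adjusted p from 0.066 to 0.088). The call was also lost with quantile normalization (limma adjusted p = 0.123) and with replicate number as a block (0.0723), in a range from 0.0183 to 0.346. Tkt, transketolase, had a difference of -0.09 (95% interval -0.32 to 0.15), and -0.24 after quantile normalization, where it passed (limma adjusted p = 0.0488).

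Whether isozymes changed unequally was asked from their log2 ratio on each array, in which array-wide scaling cancels. Of 18 pairs within a family, 10 reached the smallest p that an exact two-sided permutation test of 4 against 4 arrays can give, 0.0286, which is 0.0514 after adjustment over the 18 pairs, so none passed after adjustment. The largest shift was that of Aldoa over Aldoc, by -2.17 on the log2 scale (SD of the ratio 0.28 and 0.21, n = 4 each). Pdk1 over Pdk2 shifted by -1.26, Slc2a1 over Slc2a4 by -1.16, Eno1 over Eno2 by -1.13 and Ldha over Ldhb by -0.94. The ratio of Pfkl to Pfkp shifted by 0.71 and that of Pfkm to Pfkp by 0.73, whereas Pfkl over Pfkm moved by -0.02 (exact permutation p = 0.857). The remaining pairs at the smallest p were Slc2a3 with Slc2a4, and Pfkfb1 and Pfkfb2 each with Pfkfb4.

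**Figure D3:**
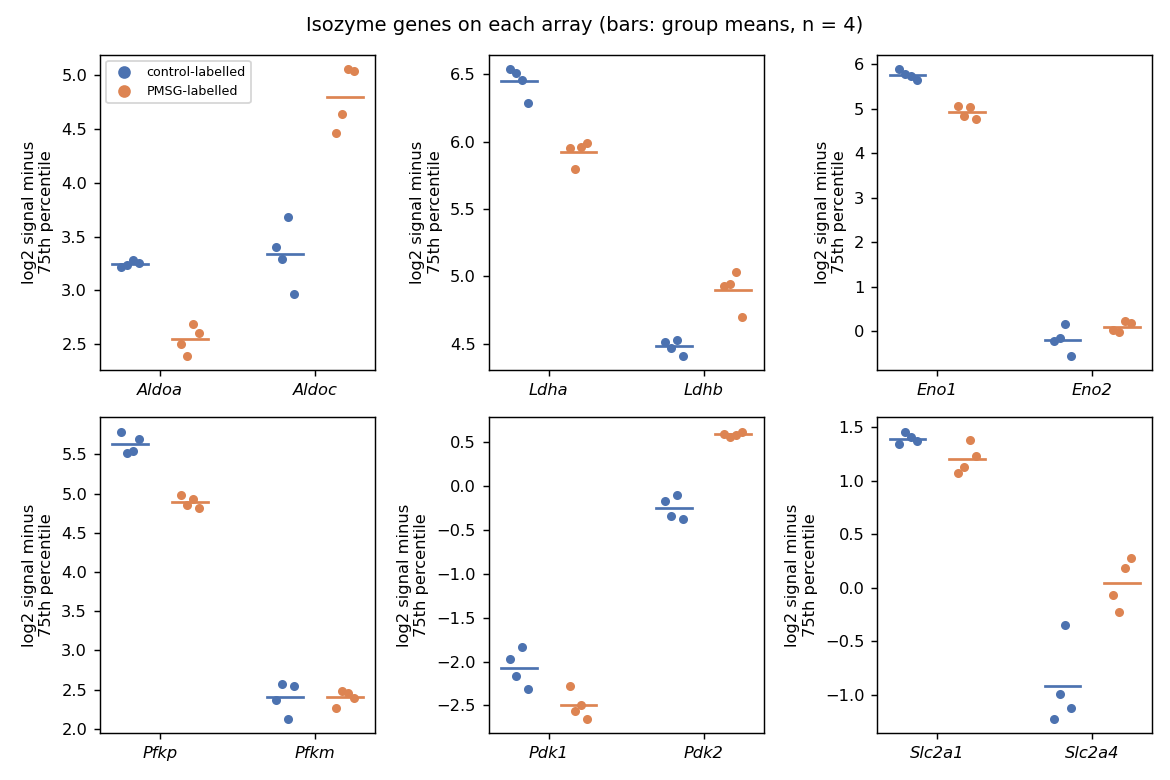
Levels (log2 signal minus the 75th percentile, y axis) of 6 pairs of isozyme genes on each of the 8 arrays, with bars at group means. Aldoa, Ldha, Eno1, Pfkp and Pdk1 have lower means in PMSG-labelled arrays, while Aldoc, Ldhb, Pdk2 and Slc2a4 have higher ones; levels of different genes are not comparable.

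Neighbouring pathways are given from lists of genes other than the 33. Of 20 genes of the citric acid cycle and of cytosolic forms of its enzymes 12 fell and 1 rose, with a median log2 difference of -0.48. The largest decrease was that of Idh1, the cytosolic NADP-dependent isocitrate dehydrogenase, which is outside the cycle, at -2.37 (limma adjusted p = 7.88e-05), followed by the mitochondrial enzymes Mdh2 at -1.03 and Idh3a at -0.98. Without the cytosolic Idh1, Aco1 and Mdh1, a split made after their values were seen, 9 of 17 fell and 1 rose (median -0.42). Of 12 genes of pyruvate entry into mitochondria 5 fell and 0 rose (median -0.34), and these 5 are subunits or a phosphatase of the pyruvate dehydrogenase complex, with Dld at -1, Pdhx at -0.98 and Dlat at -0.84. The mean over the Pdhx probes was -0.36 and did not pass (limma adjusted p = 0.133, from 2.93e-04 over its alternatives). Of 11 other pentose phosphate genes 5 fell and 1 rose (median -0.37). LOC502894, the file's name for Tigar, a fructose 2,6-bisphosphatase, fell by 1.61 and H6pd, which makes NADPH in the endoplasmic reticulum, by 1.04, or by 0.55 as the mean over its probes. The transketolase-like gene Tktl1 rose by 1.2, or by 0.56 after normexp background correction.

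Among other isozymes of glycolysis and sugar or lactate transport, increases outnumbered decreases. Of 23 tested 9 rose and 2 fell, with a median of 0.46. Pgam2, the muscle mutase, had a log2 difference of 0.71 (limma adjusted p = 0.0241), or 0.47 after normexp background correction. Its call was lost without any one of control arrays 2, 3 and 4 and PMSG arrays 2 and 3 (limma adjusted p from 0.0515 to 0.0623, within 0.00264 to 0.43 over its alternatives).

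Of 8 hexosamine and polyol genes 5 fell and 2 rose (median -0.84). Gfpt1 and Gfpt2, which divert fructose 6-phosphate into hexosamines, fell by 1.03 and 1.34, and Pgm3 of the same route fell by 1.14. After normexp correction the decreases of Gfpt1 and Gfpt2 were 0.68 and 0.5 and still passed. The mean over the Pgm3 probes was -0.23 and did not pass (limma adjusted p = 0.342, from 1.81e-05 over its alternatives). Of 16 glycogen genes 4 fell and 3 rose (median -0.13), with Pgm2 at -1.02 and Phkg1 at 1.13 (0.56 after normexp correction). Phka1, above background on 6 of 8 arrays and at -1.34 (limma adjusted p = 0.0284), lost its call without control arrays 1, 3 or 4 or PMSG array 3 (from 0.0674 to 0.074, within 0.00765 to 0.226) and was at -0.2 after normexp correction (0.22). Its call was also lost on the deposited values (limma adjusted p = 0.0615) and with replicate number as a block (0.0702). Of 8 gluconeogenesis genes 2 rose and 1 fell (median -0.11). Fbp2, the muscle fructose 1,6-bisphosphatase, rose by 1.51 (limma adjusted p = 2.53e-04). Fbp1 (-0.76, limma adjusted p = 0.042) lost its call without any control array or PMSG arrays 1 or 2 (from 0.0585 to 0.103, within 0.0115 to 0.269), and G6pc (0.91, 0.0288) without any array but PMSG array 4 (from 0.0504 to 0.0757, within 0.00117 to 0.507) and after normexp correction (0.42, 0.0618). The Fbp1 call was also lost with no filter on dim probes (limma adjusted p = 0.0541) and with replicate number (0.0749) or slide row (0.0545) as a block.

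**Figure D4:**
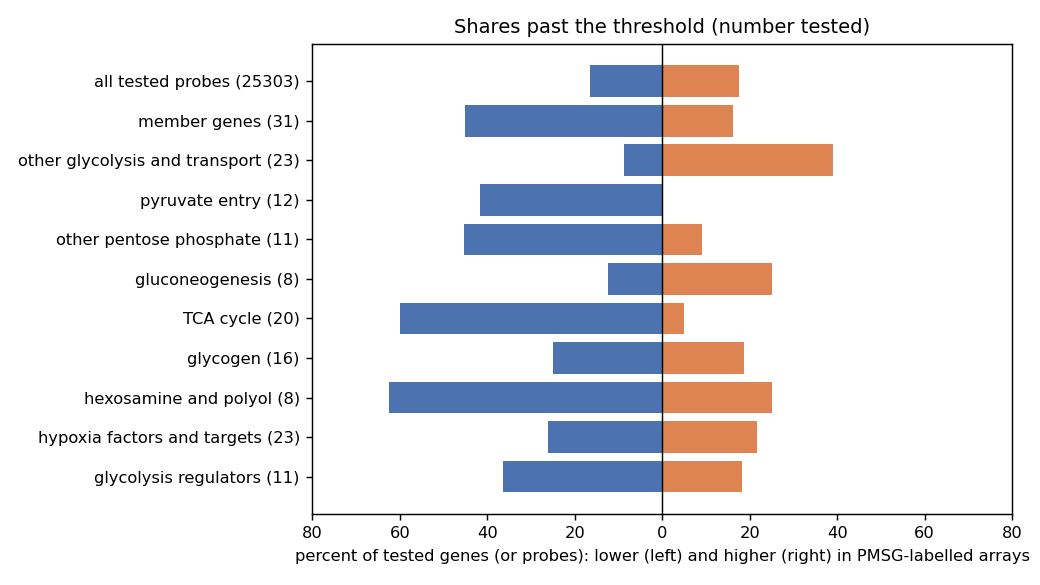
Share of tested genes lower (left) and higher (right) in PMSG-labelled arrays at a limma adjusted p below 0.05, for all tested probes, the 31 tested genes and 9 lists of neighbouring genes, with the number tested in brackets. All probes split at 16.6% lower and 17.6% higher, and the 31 genes at 45.2% and 16.1%.

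Hypoxia-inducible factor and MYC are the textbook activators of glycolytic genes. Myc fell by 0.47 (limma adjusted p = 0.00606) and Hif1a was at -0.11 (0.455), both named after their values were seen. Of 23 hypoxia factors and targets outside glycolysis 6 fell and 5 rose (median -0.16), where 16.6% of all tested probes fell and 17.6% rose. The largest differences were decreases, Ddit4 at -2.03, Ero1l at -1.46 and P4ha2 at -1.19. The 5 that rose, named after their values were seen, were Mxi1 at 1.05, Bnip3l at 0.61, Egln3 at 0.57, Ankrd37 at 0.55 and Kdm3a at 0.36. Of 11 regulators of glycolysis 4 fell and 2 rose. Txnip, an inhibitor of glucose uptake induced by the glucose sensor MondoA with its partner Mlx, went from 0.96 ± 0.36 (SD, n = 4) to 2.34 ± 0.37 (SD, n = 4), a difference of 1.38 (limma adjusted p = 0.00273). Mlx itself fell by 0.81. Arrdc4, of the same family as Txnip, was at 0.72 (limma adjusted p = 0.0419), a call lost without control arrays 1, 2 or 4 or PMSG arrays 2 or 3 (from 0.0598 to 0.108, within 0.023 to 0.669). With all arrays that call was also lost under quantile normalization (0.48, limma adjusted p = 0.118) and median centring (0.55, 0.0719). The same held with no filter on dim probes (0.0541) and with slide row as a block (0.0602).

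Because many of the genes fell together, the 250 bases before the RefSeq start site (build GRCr8) of 30 members were searched on both strands for the core hypoxia-response letters ACGTG and GCGTG, the E-box CACGTG, which contains the first of these, the cAMP element TGACGTCA and the GC box GGGCGG. A match describes letters only. At least 1 of the hypoxia cores was present in 8 of 13 promoters of genes that fell, 3 of 4 of genes that rose and 6 of 11 of genes that did not pass, where 37.9% of 27457 promoters held one. Promoters of genes that fell, rose or did not pass thus all included some with a core, and a part of these letters in the differences was not tested. The GC box was in 18 of 30 member promoters (32.4% of all promoters), with median GC contents of 59.8% and 52.0%. An E-box was in 4 of 30 (13.3%, all promoters 5.8%) and a cAMP element in 1, that of Ldha (3.3%, all promoters 1.7%). Below are a pair of promoters of genes that fell, Ldha (chr1:106507842-106508091, plus strand) and Gapdh (chr4:159652468-159652717, minus strand), and a pair of genes that rose, Aldoc (chr10:63715294-63715543, plus strand) and Pdk2 (chr10:80483913-80484162, minus strand), with the hypoxia cores on either strand in capitals.
Ldha: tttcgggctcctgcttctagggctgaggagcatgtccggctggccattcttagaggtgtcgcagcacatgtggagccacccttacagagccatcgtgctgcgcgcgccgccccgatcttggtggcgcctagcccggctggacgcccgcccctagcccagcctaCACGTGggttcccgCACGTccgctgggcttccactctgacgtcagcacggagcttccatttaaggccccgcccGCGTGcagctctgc
Gapdh: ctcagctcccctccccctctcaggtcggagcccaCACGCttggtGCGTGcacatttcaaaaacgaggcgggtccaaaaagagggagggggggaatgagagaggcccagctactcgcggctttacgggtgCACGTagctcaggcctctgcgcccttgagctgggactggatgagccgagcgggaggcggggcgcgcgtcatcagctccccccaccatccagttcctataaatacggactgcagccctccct
Aldoc: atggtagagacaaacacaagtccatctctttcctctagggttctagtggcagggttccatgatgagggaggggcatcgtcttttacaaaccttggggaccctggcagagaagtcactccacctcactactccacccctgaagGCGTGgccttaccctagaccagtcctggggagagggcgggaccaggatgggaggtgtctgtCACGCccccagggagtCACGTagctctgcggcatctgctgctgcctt
Pdk2: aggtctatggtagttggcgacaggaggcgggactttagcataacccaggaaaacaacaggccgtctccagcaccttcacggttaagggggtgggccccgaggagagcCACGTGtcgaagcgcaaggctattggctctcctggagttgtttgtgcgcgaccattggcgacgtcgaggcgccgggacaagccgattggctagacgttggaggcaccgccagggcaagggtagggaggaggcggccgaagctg
Ldha holds 4 such cores, Gapdh 3, Aldoc 3 and Pdk2 2, where the E-box CACGTG counts as 2, being the same on both strands. Ldha and Pdk2 each hold 1 E-box, and Pdk2 holds no other core.

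Markers of the cell types of the ovary also differed between the groups, and their part in the differences was not tested. Of 7 luteal and steroidogenic markers 6 fell and 0 rose, with summed levels from 274 to 307 in control-labelled and from 118 to 178 in PMSG-labelled arrays, led by Akr1c3, an enzyme of progesterone breakdown, and Cyp11a1. The Akr1c3 probe was above background on 5 of 8 arrays, so no size is given for it. All 10 oocyte markers rose, with summed levels from 3.76 to 6.69 and from 13.7 to 27.4, H1foo by 2.22 and Zar1 by 2.18. Of 8 granulosa markers 3 fell and 1 rose, with Amh at 3.03 and Nr5a2 at -1.47 and overlapping summed levels from 133 to 230 and from 119 to 150. Of 5 theca markers 3 rose and 1 fell, with Insl3 at 2.6 and Lhcgr at -1.93 (31.8 to 40.7 and 23.7 to 48.6). Summed levels follow the brightest probes of a list. For theca that is Cyp17a1, with means of 5.05 and 4.83, which did not pass (limma adjusted p = 0.483).

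Other markers gave the following. Of 9 endothelial markers 5 fell and 2 rose (22.5 to 28.6 and 22.6 to 24.1), with Cldn5 at 1.55, and Tek at -1.2 but not above background on 1 array and, after normexp correction, at -0.2 without passing (limma adjusted p = 0.175, from 0.00199 over its alternatives). Of 8 leukocyte markers 4 rose and 0 fell (8.32 to 10.2 and 12.5 to 14.2), with Aif1 at 0.68 and Ptprc at 0.69, which did not pass as the mean over its probes (limma adjusted p = 0.0685, from 0.0027 to 0.26 over its alternatives). Of 8 fibroblast and smooth muscle markers 3 rose and 0 fell (95.8 to 132 and 103 to 144), with Dcn at 0.7 and Lum at 0.58. Neither passed after median centring (limma adjusted p = 0.0822, from 0.00794 to 0.297, for Dcn and 0.15 for Lum), and the Lum call was also lost without control arrays 1, 2 or 4 or PMSG array 3 (limma adjusted p from 0.0525 to 0.0687, within 0.0057 to 0.411). Of 7 oviduct epithelium markers 4 rose and 0 fell (4.91 to 7.58 and 10.3 to 20), with Cdh16 at 2.51, and Muc1 at 3.04 (1.45 after normexp correction) but not above background on 1 array. Of 6 red blood cell markers 1 fell, Alas2 by 1.38 (190 to 239 and 151 to 221). Among the striated muscle markers Tnnt3 rose by 2 (1.04 after normexp correction) and Acta1 fell by 1.82.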

How the data were processed

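Ovary RNA (500 ng of total RNA per sample, per the labels' protocols) was labelled with Cy3 and hybridised to 1-colour Agilent rat arrays. Processed spot intensity comes, per the file headers, from version 11.5.1.1 of Agilent's Feature Extraction program, after background subtraction, detrending and surrogate values for dim spots. The authors also deposited log2 values, which matched log2 signal minus the 75th percentile of the same array (median offsets from 0.004 to 0.015) without centring of probes. Probe coordinates are on build rn4, per the file headers.

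Outlier spots were dropped, log2 processed signals of a probe's spots were averaged, and each array's 75th percentile was subtracted. A probe counted as above background where at least 0.5 of its spots did. Differences between the groups were tested over the 8 arrays with limma 3.58.1 in R 4.3.3 without covariates. The code for this fit was first tested on simulated data. The number of arrays limits the precision. Of the probes on the array, 17 without a usable spot were dropped. Columns of per-sample values not used numbered 0.

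The members and lists were chosen with earlier results of these data known. Named were all members, 5 label check genes, and by size of difference up to 3 called genes of each pathway list and 2 of each marker list. Some genes that this rule names are not reported here. Spellings of the same gene were counted once (LOC502894 for Tigar, Akr1c3 for Akr1c18). Promoters are from RefSeq (GRCr8), which matched 30 of the 33 genes. Alternatives were quantile and median scaling, normexp (offset 50), the deposited values, other filters, blocks, array weights, leaving out each array and other probes. Taking the dimmest probe, and leaving out arrays for isozyme pairs, were chosen after seeing the data.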

Additional observations from a re-analysis of the deposited data

Results flagged for a closer look

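Single arrays stood far from the rest of their group in 8 of 162 sets of 4 values, where chance alone gives about 1 in 20, here 8.1. Only 1 of the 8 concerns a member, Slc2a3, where control array 3 stood at -5.48 against -6.18 to -6.1 (gap 0.893 of the group's range). Among genes of the other lists, control array 1 was apart for Dld (gap 0.933), at 3.16 against 3.05 to 3.06, and control array 2 for Phka1 (gap 0.901), at -5.81 against -5.05 to -4.96. Control array 4 was apart for Fbp2 (gap 0.832), at -1.02 against -0.68 to -0.61, and for Cdh16 (gap 0.887), at -1.31 against -0.72 to -0.65. PMSG array 4 was apart for Insl3 (gap 0.921), at 2.49 against 3.5 to 3.59, and for Tnnt3 (gap 0.923), at -2.65 against -3.42 to -3.36. Areg had PMSG array 2 at -3.23 and the rest of that group between -5.33 and -5.11 (gap 0.897).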

How the results depend on the processing

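Of the 19 member genes past the threshold, 14 kept their call in all 19 alternatives that used both slide rows; Pfkfb2, Ldhb, Pdk1, Taldo1 and, on its dimmest probe, Pkm (-0.1, limma adjusted p = 0.771) did not. Of the 12 others, 5 passed in some alternative. Signs changed in 43 of the member values, all of genes that did not pass, and for Pfkfb2 on its dimmest probe (-0.4, limma adjusted p = 0.297). With 1 array left out, probes differing between PMSG and control numbered 6552 to 11382 (8658 with all arrays) and probes differing by at least 2-fold 2690 to 3489 (2987). Member genes higher in PMSG-labelled arrays then numbered 5 to 6 and lower ones 12 to 14, and the median of the member genes ran from -0.32 to -0.26. Median centring left 3 member genes higher, with a median of -0.48, and 34.5% of differing probes higher in place of 51.4%. Normexp gave 1483 2-fold probes and a member median of -0.21; the cause was not tested. The labels give no slide row, which was read from position numbers in the names of the scans. Within slide row 1, with 2 arrays per group, 3351 probes differed, 3 member genes were higher and 2 lower. Within row 2 limma called 0 probes, 0 of them 2-fold, with 0 member genes higher and 0 lower, against 6015 probes, 2 and 13 member genes at an unadjusted p under 0.05; all 19 called genes kept their sign in both rows. No isozyme pair passed after adjustment in any setting tried, with 7 to 10 pairs at an exact p under 0.05. Leaving out an array, added after seeing the data, gave 0 pairs past the threshold each time, with smallest adjusted exact p from 0.0571 to 0.0735. No exact p below 0.0286 is possible with these numbers of arrays, so 7 to 10 pairs at that value could not pass after adjustment. The repeats therefore do not show whether the ratios changed. Correlations of deviations within a replicate number ran from -0.0192 to 0.183. Without values for mismatched pairs to set beside them, they cannot tell whether replicate numbers pair the arrays. With the replicate block, 7346 probes differed, 6 member genes were higher and 14 lower. Dim probes limit what can be said of Slc2a3 and Pdk4.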
